A study of Mus musculus with 6 samples.

Results

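The interleukin-1 family and the cytokines released with it were followed across the cell types of the mouse bladder mucosa in healthy, acutely injured and chronically injured bladders. The set held 10 genes, chosen by name and matched to the count tables by Ensembl identifier: the cytokines Il33, Il1a, Il1b, Il18, Il6, Tslp and Tnf, the receptors Il1rl1 and Il1r1, and the receptor antagonist Il1rn. Of these, 9 were among the 14338 genes (mitochondrial and ribosomal genes aside) listed in all 6 tables, and Il1rl1 was listed in 5 of them. The study profiled single cells of C57BL/6 wild-type mice aged 8 weeks by droplet-based RNA sequencing, with 2 libraries per condition. Acutely injured mice were collected 48 h after cyclophosphamide (CPP), a chemotherapeutic drug whose metabolites damage the bladder lining, and chronically injured mice on day 11, after 4 rounds of CPP. By the methods of the study, chronically injured bladders were also taken 48 h after the last injection, and each of their doses was lower than the acute dose. The mucosa was peeled from the muscle and digested with collagenase and DNase, so the cells are those that survived digestion and encapsulation. The study used males and females, and gave the number of mice for each condition only. The number and sex of the mice behind each library, and its processing batch, were not given in the sources used here. Batch, sex and condition can therefore not be told apart where they coincide, and p-values measure the spread between these libraries.

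These cytokines are the early messengers of tissue damage. Interleukin-33 is kept in the nucleus of epithelial and stromal cells and acts as an alarmin when cells are damaged, through the receptor ST2, which Il1rl1 encodes and which lymphocytes, mast cells and some myeloid cells carry. Interleukin-1 alpha and beta share the receptor encoded by Il1r1, and the antagonist encoded by Il1rn occupies that receptor without signalling. Interleukin-1 beta and interleukin-18 are made as precursors that the inflammasome protease caspase-1 cleaves. Interleukin-6, TSLP and tumour necrosis factor carry the alarm onwards to leukocytes, dendritic cells and blood vessels. In the bladder, the urothelium is layered into basal, intermediate and superficial (umbrella) cells above a stroma of fibroblasts and myofibroblasts with resident macrophages.

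In the mouse genome build GRCm38, to which the mm10 reference of the tables corresponds, Il33 lies on the forward strand at chr19:29925114-29960718, Il18 at chr9:50554827-50581840, Il6 at chr5:30013114-30019981, and Il1rn at chr2:24336853-24351494. On the reverse strand lie Il1a at chr2:129299610-129309972, Il1b at chr2:129364570-129371139, 54.6 kb further along, and Tnf at chr17:35199381-35202007. The receptor genes Il1r1 at chr1:40225080-40317257 and Il1rl1 at chr1:40429570-40465415 are 112.3 kb apart, both on the forward strand. Il1a and Il1b both had their highest levels in antigen-presenting cells.

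Promoter windows of 300 bases, from 250 before to 50 after a RefSeq transcript start in GRCm38.p6, were at hand for 9 members. Both strands were searched for 4 motifs: NF-kB, AP-1 (TGANTCA), PU.1 (GAGGAA) and C/EBP (TTGCNNAA), which 4.51%, 7.81%, 28.3% and 10.8% of 32851 mouse promoter windows of this length held. The windows of Il33, Il1rn and Il6 are shown because these genes carry the layer and stromal differences described below, and capitals mark matches of NF-kB and AP-1 only. In Il6 an AP-1 match began 249 bases before the start and an NF-kB match 44 bases before it, with a C/EBP match 128 bases before it. Il1rn held an AP-1 match 141 bases before the start shown, and the windows of its other 2 starts held none of the 4 motifs. The Il33 window shown held 2 PU.1 matches, which begin 4 bases before and 3 bases after the start, and no match of NF-kB or AP-1. The window of a second Il33 start held a C/EBP match 85 bases before it and no match of NF-kB, AP-1 or PU.1. Il1a also had an AP-1 match, 12 bases before its start, and a second start of Il1r1 an NF-kB match 232 bases before it. A match describes letters in the window and is not a measured site.
Il33, chr19:29924863-29925162, forward strand: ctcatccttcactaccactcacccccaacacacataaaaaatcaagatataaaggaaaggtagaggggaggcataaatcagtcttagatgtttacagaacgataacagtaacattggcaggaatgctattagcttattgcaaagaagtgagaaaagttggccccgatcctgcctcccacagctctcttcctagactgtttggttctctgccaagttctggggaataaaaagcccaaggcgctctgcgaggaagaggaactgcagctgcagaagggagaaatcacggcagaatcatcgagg
Il1rn, chr2:24336610-24336909, forward strand: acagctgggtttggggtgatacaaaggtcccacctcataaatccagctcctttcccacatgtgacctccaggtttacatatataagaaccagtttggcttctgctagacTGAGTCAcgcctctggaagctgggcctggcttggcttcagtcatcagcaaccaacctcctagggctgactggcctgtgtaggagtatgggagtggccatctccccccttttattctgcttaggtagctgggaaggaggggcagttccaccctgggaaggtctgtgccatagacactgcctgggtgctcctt
Il6, chr5:30012864-30013163, forward strand: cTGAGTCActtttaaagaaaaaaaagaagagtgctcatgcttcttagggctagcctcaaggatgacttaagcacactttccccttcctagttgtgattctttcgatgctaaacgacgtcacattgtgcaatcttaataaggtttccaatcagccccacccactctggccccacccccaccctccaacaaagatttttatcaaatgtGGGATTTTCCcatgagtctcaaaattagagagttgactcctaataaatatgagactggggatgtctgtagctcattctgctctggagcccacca

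The 6 libraries held 54604109 to 111985678 unique molecular identifiers (UMIs, 1 for each captured mRNA), with a median of 5530 to 9138 per cell. Of 55398 barcodes that passed the filters, 4469 were called doublets, and 48864 of the remaining 50929 cells fell into 11 classes named from markers, without the use of the genes described here. Clustered without integration, several urothelial clusters came largely from a single library, and healthy replicate 1 and acute replicate 1 fell together in others (2351 and 1817 of the 4365 cells of 1 cluster). The tables of these same libraries are those that leave out genes of few cells. Pairs of libraries shared at most 2.28% of the cell barcodes of the smaller one. Levels are given as UMIs per 1000000 UMIs (CPM) of a library's cells of a class, in classes with at least 20 cells. The total counts only the 14338 genes shared by all libraries, without mitochondrial and ribosomal genes. The assay tags the 3′ end of each molecule once, so a level does not grow with the length of the transcript. The summed markers of macrophages (9 genes) reached 27875 to 45815 CPM in macrophages and at most 4066 CPM in any other class, and those of lymphocytes (4 of 11 listed in all tables) 3561 to 6761 CPM in lymphocytes and at most 256 CPM elsewhere. The myofibroblast markers were as high in mural cells (10192 to 29814 CPM) as in myofibroblasts (8317 to 22099 CPM). The same markers named the classes, so these sums are descriptions. RNA typical of some classes was also found in others, and the part of free RNA from burst cells in this was not tested. The uroplakins Upk1a, Upk1b, Upk2 and Upk3a, which urothelial cells make, stood in macrophages at 7.68% to 44.7% of their level in intermediate cells (the median of the genes in each library, as for the following sets). The macrophage genes C1qa, C1qb, C1qc, Csf1r and Lyz2 stood in urothelial cells at only 0.0199% to 0.317% of their macrophage level. The mesenchymal genes Dcn, Col1a1, Col1a2 and Col3a1 stood in urothelial cells at 0.545% to 2.41% of their mesenchymal level.

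The members divided the mucosa between them. Most UMIs of Il33, Il18 and Il1rn came from urothelial cells: in the median library 95.2%, 93.3% and 96.3% of those over all classes. Over the libraries these shares were 88.5% to 98.0%, 62.15% to 97.6% and 89.0% to 98.1%. The lowest share of Il18 was in healthy replicate 1, where 34.6% came from mesenchymal cells. Such shares follow the number of cells as well as the level: urothelial cells also supplied a median of 88.9% of the Il1r1 UMIs. For Il18 the mean level was 42.7 CPM in macrophages, 18.0 CPM in myofibroblasts and 16.0 CPM in fibroblasts. In basal, intermediate and superficial cells it was 7.01, 22.8 and 27.7 CPM. Il1b came mostly from macrophages and from cells with MHC class II but no C1q, which supplied a median of 82.0% of its UMIs and 50.9% to 88.4% over the libraries. Over all libraries and classes the UMIs of a member ranged from 53 for Il1rl1 to 25860 for Il33, and this number sets how finely each member can be read.

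**Figure D1:**
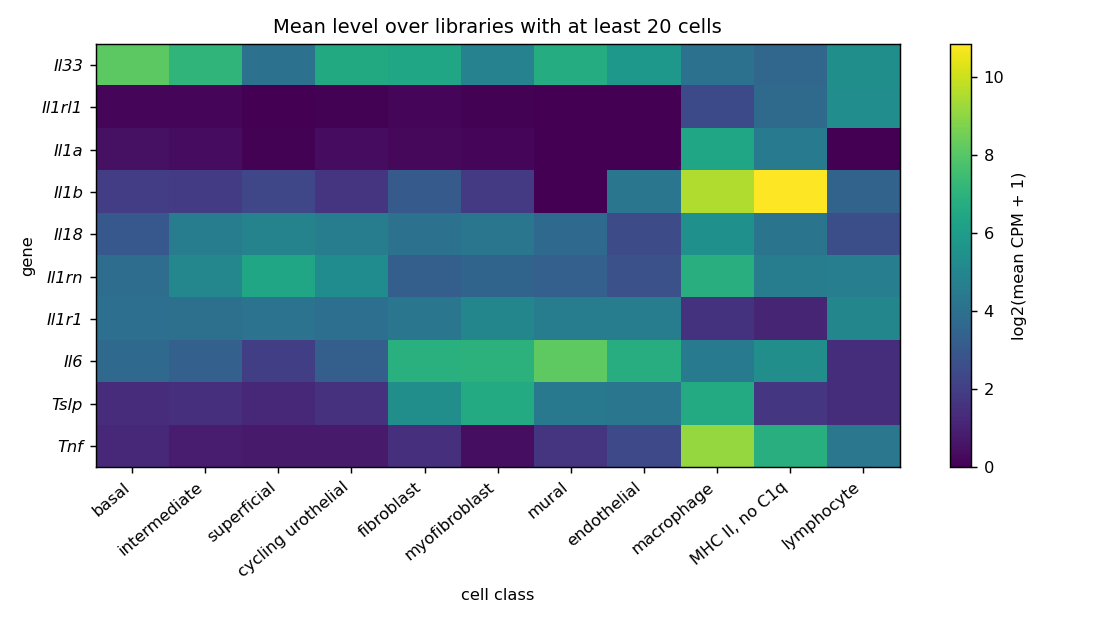
Mean level of each gene (rows) in each cell class (columns), as log2 of mean CPM + 1 over the libraries with at least 20 cells of the class, with the colour bar as scale. Il33 was highest in basal cells (mean 277 CPM), Il1b in cells with MHC class II but no C1q (1829 CPM), Tnf in macrophages (555 CPM) and Il6 in mural cells (280.3 CPM, 2 libraries).

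Il33, the alarmin stored in nuclei, fell step by step from the basal to the superficial layer. In basal cells it measured 159.7 and 189 CPM in the healthy libraries, 499 and 217 CPM in the acute libraries, and 282 and 315 CPM in the chronic libraries. In intermediate cells the values in the same order were 59.8, 100.7, 268, 105, 150.6 and 139 CPM, and in superficial cells 5.46, 11.8, 16.3, 9.10, 28.4 and 25.7 CPM. The order of the layers was the same in each of the 6 libraries. Intermediate cells were lower than basal cells by a log2 fold change of -0.98 (SE 0.058, adjusted p = 3.33e-16), and superficial cells were lower than intermediate cells by -2.97 (SE 0.25, adjusted p = 4.98e-05, edgeR quasi-likelihood test with the library as a block). The mean ± SD was 277 ± 123 CPM in basal cells, 137 ± 71.6 CPM in intermediate cells and 16.1 ± 9.22 CPM in superficial cells (n = 6). Cycling urothelial cells held 80.8 and 113.7 CPM (healthy), 96.7 and 54.0 CPM (acute), and 133.7 and 90.7 CPM (chronic), and were not called different from non-cycling basal and intermediate cells (-0.71, SE 0.27, adjusted p = 0.103, lower in 4 of 6 libraries). Basal cells are the stem-like layer that rests on the basement membrane, and superficial cells face the urine.

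Il18 and Il1rn ran the other way. Il18, the caspase-1-dependent cytokine, measured 0.431 CPM (1 UMI) and 5.57 CPM in healthy basal cells, 6.94 and 9.11 CPM in acute ones, and 13.6 and 6.40 CPM in chronic ones. In intermediate cells the values in the same order were 4.20, 24.7, 24.2, 23.8, 32.8 and 27.0 CPM. In superficial cells it measured 7.09, 35.4, 25.7, 34.4, 33.8 and 29.6 CPM. Healthy replicate 1 was the lowest library in every urothelial class. Il18 was higher in intermediate than in basal cells by 1.89 on the log2 scale (SE 0.15, adjusted p = 1.06e-13) and higher in superficial than in intermediate cells by 0.35 (SE 0.097, adjusted p = 0.0031), each in 6 of 6 libraries. The second of these steps was 0.20 (adjusted p = 0.175) when the libraries were clustered without integration.

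Il1rn, the antagonist that blocks the interleukin-1 receptor, was the member that rose most clearly towards the lumen. Its levels in basal cells were 10.8 and 22.3 CPM (healthy), 8.67 and 11.6 CPM (acute), and 13.6 and 15.4 CPM (chronic). In superficial cells they were 38.7, 130.4, 73.7, 73.4, 90.2 and 90.9 CPM, and each library was higher there than in its own intermediate and basal cells. The step from basal to intermediate cells was 1.23 (SE 0.11, adjusted p = 2.28e-12) and that from intermediate to superficial cells 1.51 (SE 0.081, adjusted p = 1.38e-14). Il1rn was also 0.37 higher in cycling urothelial cells than in non-cycling basal and intermediate cells (SE 0.10, adjusted p = 0.0102, higher in 5 of 6 libraries), and this call was lost without acute replicate 1 (0.31, adjusted p = 0.0547), without acute replicate 2 (0.30, adjusted p = 0.0621) and without integration (0.21, adjusted p = 0.052). The cycling class mixes layers and holds superficial-like cells, which the comparison group leaves out. Summed superficial markers reached 4951 to 12215 CPM in cycling cells, 1253 to 2956 CPM in basal cells and 5636 to 9944 CPM in intermediate cells. The part of layer in the differences between cycling and non-cycling cells was not tested.

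Il6 was low in the urothelium and lowest at its surface. It measured 36.2, 4.78, 12.1, 4.08, 4.55 and 10.2 CPM in basal cells and 4.37, 2.21, 3.78, 0.792, 2.49 and 4.48 CPM in superficial cells, with the libraries in the same order. Superficial cells were lower than intermediate cells by -1.31 (SE 0.19, adjusted p = 2.12e-06, 6 of 6 libraries). The part of RNA from burst stromal cells in these values was not tested. In intermediate cells Il6 stood at 4.26% to 16.4% of its mesenchymal level, above the 0.594% to 2.21% of the 4 mesenchymal genes there. Of the 8 members tested, 3 were called between intermediate and basal cells, where 41.0% of 12804 genes were called, and 4 between superficial and intermediate cells, where 53.1% of 12869 genes were. For cycling against non-cycling cells 1 of 9 was called, against 32.3% of 13576 genes. These shares of members called are near or below those over all genes.

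**Figure D2:**
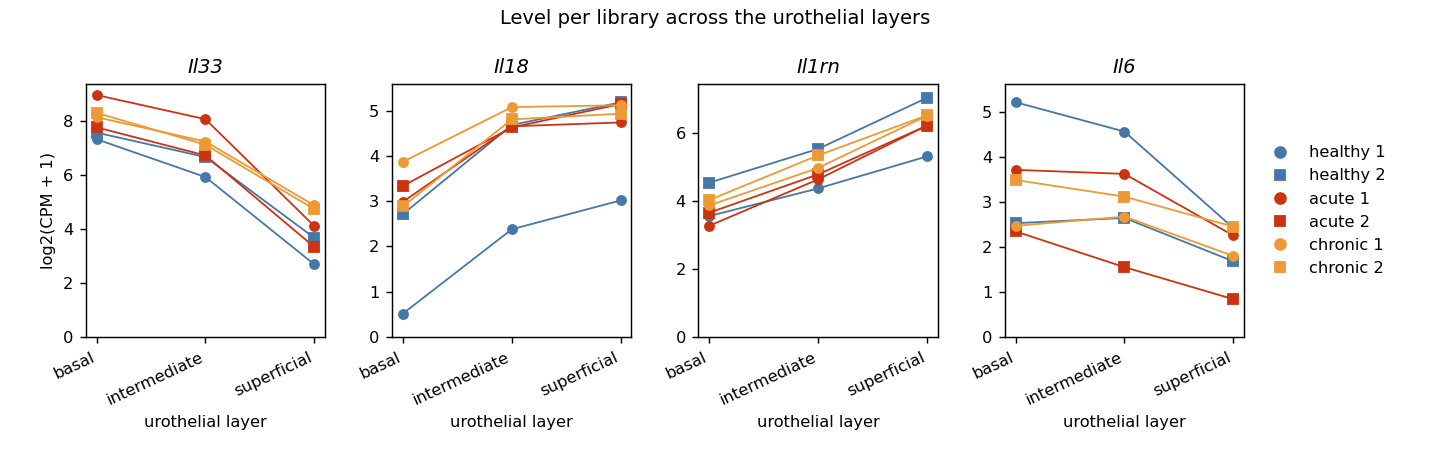
Level of Il33, Il18, Il1rn and Il6 as log2(CPM + 1) in basal, intermediate and superficial cells, with 1 line per library (blue healthy, red acute, orange chronic, circles replicate 1, squares replicate 2). The Il33 lines fall and the Il1rn lines rise in all 6 libraries, and the Il18 line of healthy replicate 1 runs below the others.

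Il1r1, which encodes the receptor for interleukin-1 alpha and beta, was nearly level through the urothelium. Its mean ± SD was 14.5 ± 4.43 CPM in basal, 14.9 ± 1.64 CPM in intermediate and 16.5 ± 3.75 CPM in superficial cells (n = 6), and neither step between layers was called (0.06, SE 0.12, adjusted p = 0.737, and 0.24, SE 0.11, adjusted p = 0.0553). Myofibroblasts held more than fibroblasts, with 38.8 and 23.5 CPM (healthy), 49.5 and 32.0 CPM (acute), and 11.6 (2 UMIs) and 29.3 CPM (chronic), against 22.7, 19.2, 16.1, 18.5, 11.5 and 22.2 CPM. The difference was 0.79 (SE 0.18, adjusted p = 0.0025) and had the same direction in 6 of 6 libraries. Macrophages held 0 to 1 UMI per library, or at most 6.24 CPM, and their range did not overlap that of any urothelial class. In lymphocytes Il1r1 gave 18 UMIs (60.1 CPM) in acute replicate 2 and 0 UMIs in healthy replicate 2, where 3 UMIs would be 62.2 CPM, so that no difference was detectable at this depth.

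Il1rl1, the gene of the interleukin-33 receptor ST2, gave the fewest UMIs. There were 53 in the classes of 5 libraries and was not listed for acute replicate 1, whose table holds only genes seen in at least 6 cells. Lymphocytes held 2 UMIs (41.5 CPM) in healthy replicate 2 and 11 UMIs (36.7 CPM) in acute replicate 2. Cells with MHC class II but no C1q held 26.9 CPM (6 UMIs) in healthy replicate 2 and 22.9 CPM (5 UMIs) in acute replicate 2, and 0 UMIs in healthy replicate 1 and chronic replicate 1. Macrophages held 13.1 CPM (4 UMIs) and 8.6 CPM (2 UMIs) in the healthy libraries and 0 UMIs in the 3 injured libraries with the gene. No urothelial class exceeded 0.431 CPM in any library. The highest levels were thus in the leukocyte classes, at counts too low for a test, while its ligand Il33 was highest in basal cells. The lymphocyte class of healthy replicate 2 has 21 cells and also held 1410 CPM of neutrophil marker RNA (3 of 7 markers listed in all tables), against 3.34 CPM in acute replicate 2, whose part in these values was not tested. The mast cell markers that had been listed were not among the genes shared by all tables, so mast cells were not assessed here.

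Il1b, the inflammasome-processed form of interleukin-1, was concentrated in antigen-presenting cells. In cells with MHC class II but no C1q it was high in each library with enough cells: 1741 and 2491 CPM (healthy), 1386 CPM (acute replicate 2) and 1698 CPM (chronic replicate 1). In macrophages it measured 1245 and 8.6 CPM (healthy), 318 and 1480 CPM (acute), and 510.4 and 982 CPM (chronic). Healthy replicate 2 stood apart, with 2 UMIs of Il1b in 79 macrophages, although the summed level of C1qa, C1qb, C1qc, Csf1r and Lyz2 in these cells, 43330 CPM, was the highest of all libraries. The summed level of 9 NF-kB response genes there, 7173 CPM, was the lowest, against 9525 to 27898 CPM. The difference between both classes was not called (macrophages lower by -1.45, SE 1.39, adjusted p = 0.549, lower in 3 of 4 libraries).

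The macrophage class consists of 2 sub-clusters, and libraries drew on them unequally. The first was led by Apoe, Ccl8, Pf4 and Folr2 and made up 87.3% of the macrophages in healthy replicate 2 and 83.8% in acute replicate 1, against 33.3% in healthy replicate 1, 35.6% in acute replicate 2, 58.1% in chronic replicate 1 and 40.8% in chronic replicate 2. The second was led by Apoe, C1qb, Ccl4 and C1qa. Levels in these sub-clusters were examined after the library values were seen and are given as a description.

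Il1b, Il1a and Tslp split between the sub-clusters. In the Ccl4-led cells Il1b measured 1808 CPM in healthy replicate 1, 2262 CPM in acute replicate 2, and 1249 and 1614 CPM in the chronic libraries. In the Folr2-led cells it measured 179.8 and 4.81 CPM (healthy), 129 and 309 CPM (acute), and 10.3 and 193 CPM (chronic). The ranges did not overlap. Tslp, the epithelial-type cytokine that acts on dendritic cells, had the opposite distribution: 179.8 and 255 CPM (healthy), 194 and 112 CPM (acute), and 72.2 and 74.0 CPM (chronic) in the Folr2-led cells, against 4.99 CPM (1 UMI), 8.79 CPM (2 UMIs) and 0 UMIs in both chronic libraries in the Ccl4-led cells. The Tslp of macrophages thus lay almost wholly in the Folr2-led cells. Il1a, which acts without inflammasome cleavage, measured 183 and 12.9 CPM (healthy), 12.5 and 176 CPM (acute), and 30.7 and 85.6 CPM (chronic) over all macrophages, from 2 to 67 UMIs. Its lowest libraries were healthy replicate 2 and acute replicate 1, those with the highest share of Folr2-led cells. In the 4 libraries with enough cells of both, Il1a was 255, 286, 76.2 and 154 CPM in the Ccl4-led cells and 47.3, 13.2, 0 and 0 CPM in the Folr2-led cells.

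Tnf, the product of which activates endothelium and leukocytes, was found in both sub-clusters, with ranges that overlapped. Its median was 960 CPM (272 to 1428 CPM, 4 libraries) in the Ccl4-led cells and 363 CPM (178 to 496 CPM, 6 libraries) in the Folr2-led cells. Over all macrophages Tnf measured 1102 and 249 CPM (healthy), 512 and 234 CPM (acute), and 781 and 455 CPM (chronic). In cells with MHC class II but no C1q it measured 90.5, 67.3, 119 and 171 CPM in the 4 libraries with enough cells, below the lowest macrophage library. Macrophages exceeded these cells in Tnf by 2.31 (SE 0.40, adjusted p = 0.0027), in Il1a by 2.30 (SE 0.35, adjusted p = 5.24e-05), in Il1rn by 2.18 (SE 0.39, adjusted p = 3.40e-04) and in Tslp by 5.05 (SE 0.64, adjusted p = 7.48e-06), each in 4 of 4 libraries. Thus 4 of 7 members tested were called, where 26.2% of 3887 genes were. The mean of Il1a in cells with MHC class II but no C1q moved from 20.8 to 46.8 CPM without integration.

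Il1rn in macrophages overlapped with superficial cells, at 212 and 25.8 CPM (healthy), 93.6 and 79.0 CPM (acute), and 79.9 and 184 CPM (chronic). Macrophages were higher in 4 of 6 libraries. The median of Il1rn was 169.5 CPM in the Ccl4-led and 53.5 CPM in the Folr2-led macrophages, with ranges that overlapped. Il18 was higher in macrophages (22.9, 34.4, 43.7, 47.4, 61.5 and 46.1 CPM, from 7 to 18 UMIs each) than in superficial cells in 5 of 6 libraries. In lymphocytes against macrophages 3 of 3 members tested were called lower over healthy replicate 2 and acute replicate 2, where 20.8% of 4089 genes were called: Tnf (-3.44, SE 0.50, adjusted p = 1.88e-10), Tslp (-4.91, SE 0.88, adjusted p = 4.09e-07) and Il1rn (-2.84, SE 0.72, adjusted p = 7.38e-04). Tnf measured 0 and 36.7 CPM in these lymphocytes, against 249 and 234 CPM in macrophages, and Tslp averaged 1.67 CPM in the lymphocytes. With lymphocyte counts this low, a member was tested here mainly where macrophages held it. Il1r1 and Il1rl1, both seen in lymphocytes, were not tested in this pair. The count of 3 of 3 is therefore not a result about the members. The Il1rn call rests on 2 UMIs in the lymphocytes of each library: lymphocytes were lower in 1 library and higher in the other, and DESeq2 gave an adjusted p of 0.906.

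Outside leukocytes Tnf, Il1a and Il1b were low. Tnf stood in intermediate cells at 0.0900% to 0.240% of its macrophage level, within the range of the 5 macrophage genes there (0.0487% to 0.241%). Il1a stood at 0.140% to 1.85%, with 2 to 12 UMIs per library, and its median of 0.489% was above the 0.0975% of the macrophage genes. The macrophage level of Il1a itself ranged from 12.5 to 183 CPM. The share was highest in acute replicate 1, where that level was lowest, so the higher shares rest on few UMIs in macrophages too. Il1b in intermediate cells ranged from 0.576 to 6.99 CPM, and the share relative to macrophages is not interpretable in healthy replicate 2, whose macrophages held 2 UMIs. With that library included the median share was 0.339% and the lowest 0.144%, against the median of 0.0975% for the macrophage genes. Urothelial cells supplied 31.6% and 45.5% of the Il1b UMIs in the chronic libraries and 8.33% to 14.1% in the others. These shares also follow cell numbers. In the order healthy, acute and chronic, the libraries held 87, 79, 37, 135, 62 and 49 macrophages. Their intermediate cells numbered 4535, 5183, 3310, 4018, 6914 and 3540. Il1b in intermediate cells averaged 2.41 ± 0.21 CPM in healthy and 4.70 ± 3.24 CPM in chronic libraries (SD, n = 2), which was not called (edgeR adjusted p = 0.958). The part of free RNA in the urothelial Il1a and Il1b was not tested.

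**Figure D3:**
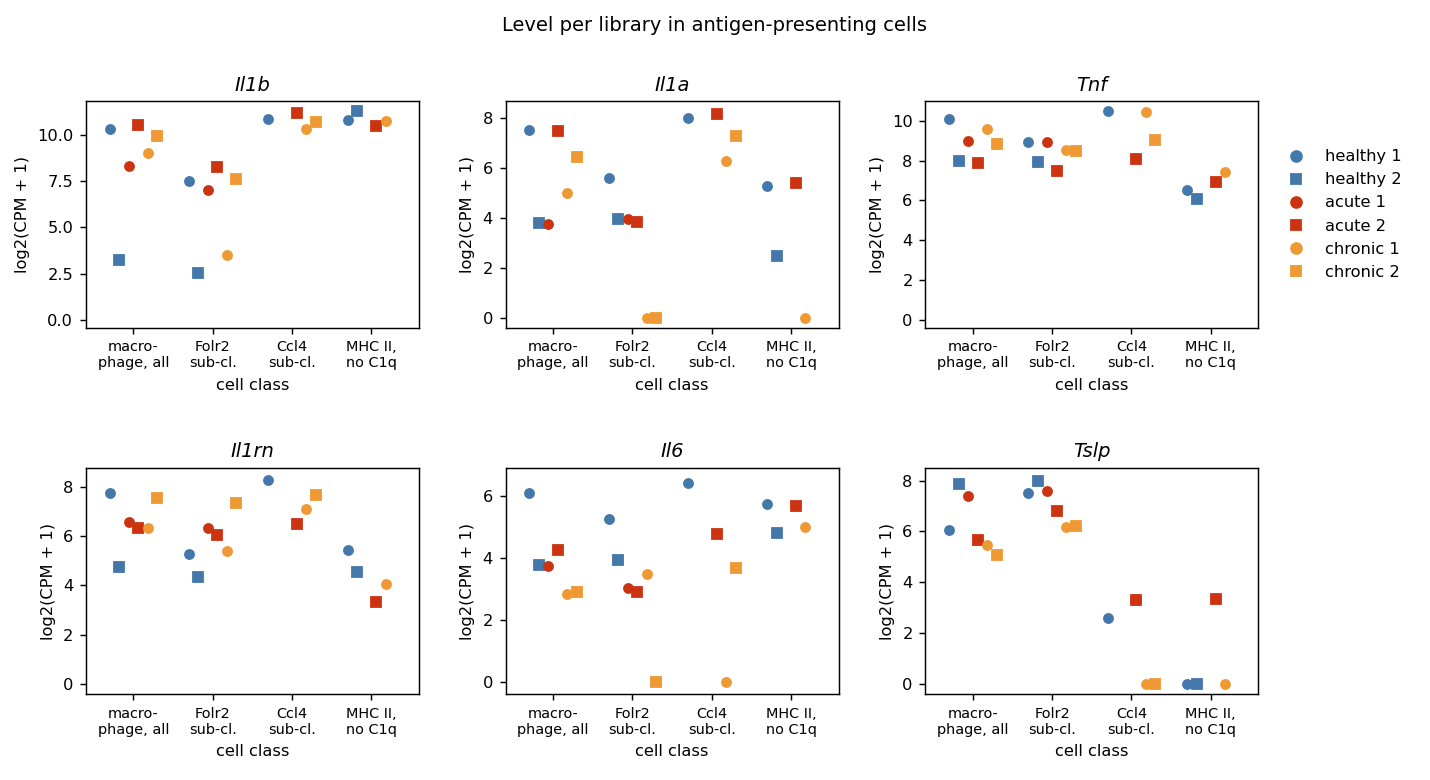
Level of 6 members as log2(CPM + 1) in all macrophages, in their Folr2-led and Ccl4-led sub-clusters, and in cells with MHC class II but no C1q, with 1 point per library with at least 20 cells. Il1b is high in the Ccl4-led cells and low in the Folr2-led cells, and Tslp shows the reverse.

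Il6 and Tslp were higher in mesenchymal than in urothelial cells. Because urothelial cells are many, they still supplied 38.2% of the Il6 UMIs in the median library (17.9% to 68.8%), and mesenchymal cells 56.2% (27.9% to 61.1%). Il6, which drives the acute-phase response, measured 155 and 48.8 CPM (healthy), 271 and 17.0 CPM (acute), and 107 and 107 CPM (chronic) in fibroblasts. In myofibroblasts it measured 169, 88.9, 257, 10.2, 69.6 and 155 CPM in the same order. Mural cells, which wrap vessels, held 355 CPM in acute replicate 1 and 205 CPM in acute replicate 2, and endothelial cells held 192 CPM in healthy replicate 1, 99.7 and 173 CPM in the acute libraries, and 50.5 and 25.4 CPM in the chronic libraries. Fibroblasts exceeded basal cells by 3.25 (SE 0.33, adjusted p = 7.49e-06, 6 of 6 libraries), and fibroblasts and myofibroblasts were not called different (0.07, SE 0.18, adjusted p = 0.856).

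The 2 acute libraries were the highest and the lowest of the 6 for Il6 in both mesenchymal classes. In acute replicate 2 the summed level of 16 immediate-early genes, which rise when tissue is dissociated, was 9571 CPM in fibroblasts and 11547 CPM in myofibroblasts. In the other libraries these sums were 18976 to 30314 CPM and 18209 to 31213 CPM. Fibroblasts of acute replicate 2 also came mostly (60.1%) from a sub-cluster led by Inmt, Gsn, Ifi27l2a and Cox6b2, which made up 6.78% to 16.9% elsewhere, but its Il6 was the lowest in each of the 3 fibroblast sub-clusters: 3.93, 31.0 and 23.5 CPM, against 27.6 to 204, 71.8 to 394 and 76.5 to 344 CPM in the other libraries with at least 20 cells. The summed NF-kB response genes were also lowest in the fibroblasts of acute replicate 2, at 708 CPM against 1084 to 5500 CPM. Of the myofibroblasts of acute replicate 2, 50.3% fell in a sub-cluster led by Car3, Cxcl14, Rbp4 and Tnc, which made up 3.96% to 19.7% elsewhere. The median Il6 of that sub-cluster was 21.6 CPM, against 183 and 94.4 CPM in the other myofibroblast sub-clusters, and Il6 of acute replicate 2 was the lowest in each of the 3 (2.89, 15.95 and 19.95 CPM) among libraries with at least 20 cells. The part of dissociation and of sub-cluster makeup in the Il6 values was not tested.

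Tslp was higher in myofibroblasts than in fibroblasts, and its mean in myofibroblasts, 98.3 CPM, was close to the 98.7 CPM of macrophages. Its levels were 72.4 and 149 CPM (healthy), 59.4 and 101 CPM (acute), and 69.6 and 137 CPM (chronic) in myofibroblasts, against 53.3, 40.3, 29.7, 61.5, 34.4 and 22.2 CPM in fibroblasts. The difference was 1.09 (SE 0.21, adjusted p = 0.0022) with the same direction in 6 of 6 libraries, and it was 0.42 (adjusted p = 0.0835) when the cells were clustered without integration, where the mean of fibroblasts was 63.95 CPM in place of 40.2 CPM. Urothelial classes held 0 to 5.03 CPM, and fibroblasts exceeded basal cells by 4.61 (SE 0.32, adjusted p = 2.65e-08). In intermediate cells Tslp stood at 1.79% to 4.25% of its mesenchymal level, against 0.594% to 2.21% for the 4 mesenchymal genes. In the median library 68.3% of the Tslp UMIs came from mesenchymal cells and 16.1% from urothelial cells.

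Fibroblasts also held Il33, at 77.7 and 47.8 CPM (healthy), 119 and 24.5 CPM (acute), and 100.3 and 115 CPM (chronic), below the basal cells of the same library in 6 of 6 (-1.78, SE 0.25, adjusted p = 8.30e-05). Myofibroblasts held less still, 8.40, 11.1, 21.4, 7.55, 40.6 and 70.2 CPM, and were lower than fibroblasts by -2.05 (SE 0.28, adjusted p = 3.02e-04, 6 of 6 libraries). Endothelial cells held 38.5 CPM in healthy replicate 1, 17.6 and 18.0 CPM in the acute libraries, and 118 and 76.3 CPM in the chronic libraries, from 3 to 11 UMIs each. Relative to intermediate cells the fibroblast level of Il33 was 23.3% to 129.8%, above that of the uroplakins in the same fibroblasts (6.94% to 49.4%) in each library. In myofibroblasts Il33 stood at 7.19% to 50.6% of its intermediate level and the uroplakins at 6.39% to 31.5%, with Il33 below the uroplakins in 4 of 6 libraries. In endothelial cells Il33 stood at 6.57% to 78.3% and the uroplakins at 12.2% to 43.5%, with Il33 below them in 2 of 5 libraries. The part of free urothelial RNA in the Il33 of these classes was not tested. Between myofibroblasts and fibroblasts 3 of 7 members were called, against 20.6% of 11365 genes, and between fibroblasts and basal cells 6 of 7, against 63.6% of 11793 genes. The remaining calls of the second comparison were Il18 (1.42 higher in fibroblasts, SE 0.31, adjusted p = 0.00102), Il1rn (-0.91, SE 0.30, adjusted p = 0.0174, lower in 5 of 6 libraries) and Il1r1 (0.44, SE 0.17, adjusted p = 0.0365). The Il1r1 call was lost without any of 5 single libraries, each of healthy replicates 1 and 2, acute replicates 1 and 2 and chronic replicate 1 (adjusted p = 0.0507 to 0.127), and with no filter on low counts (0.0631). Il1rn stood in fibroblasts at 5.08% to 44.8% of its intermediate level, near the share of the uroplakins.

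**Figure D4:**
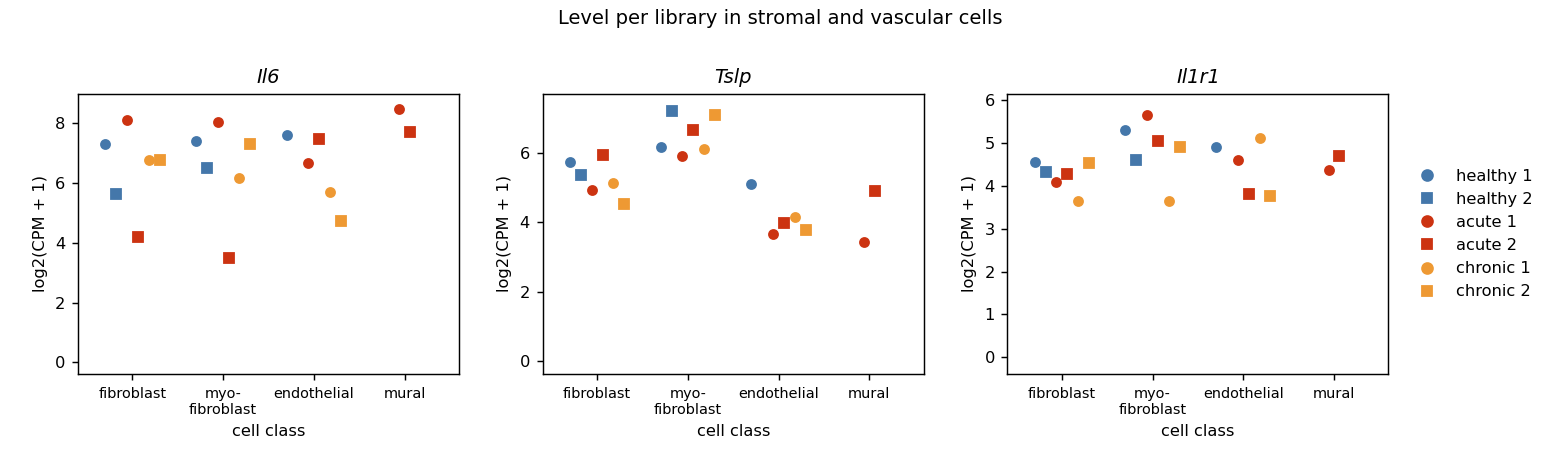
Level of Il6, Tslp and Il1r1 as log2(CPM + 1) in fibroblasts, myofibroblasts, endothelial cells and mural cells, with 1 point per library with at least 20 cells. Il6 of acute replicate 1 is the highest and that of acute replicate 2 the lowest in both mesenchymal classes, and Tslp is higher in myofibroblasts than in fibroblasts in each library.

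The comparison of injured with healthy bladders asked whether CPP changed these genes within a cell class. It was made in the 7 classes with at least 20 cells in each library, and the other 4 classes were not tested between conditions. In acute against healthy bladders 42 combinations of member and class were tested and 0 were called by edgeR, where 0.0322% of 68219 gene-by-class tests were called. At an unadjusted p under 0.05 there were 3 (4.46% of all tests), and DESeq2 called 0 (0.375% of all tests). Both acute libraries lay above both healthy ones in 5 of 42 and below in 5 of 42, against 15.3% and 15.7% over all genes. In chronic against healthy bladders 0 of 42 were called by edgeR (0.0161% over all genes), 4 had an unadjusted p under 0.05 (6.76%) and DESeq2 called 0 (0.585%). Both chronic libraries lay above both healthy ones in 11 of 42 (18.3% over all genes) and below in 4 of 42 (17.5%). The 2 contrasts share the healthy libraries, and the classes of a contrast come from the same libraries, so the tests are not independent. Fewer molecules per cell and a change in which cells make up a class cannot be told apart in such sums.

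Of the 8 differences that met the rule for naming, 4 were of Il33. In basal cells the acute mean was 358 ± 199.6 CPM and the healthy mean 175 ± 21.1 CPM (SD, n = 2), which differ by 1.03 on the log2 scale (SE 0.34, edgeR adjusted p = 0.9998). In intermediate cells the difference was 1.22 (SE 0.42, adjusted p = 0.9997). Both rested on acute replicate 1: without it they were 0.42 and 0.48. Acute replicate 2 lay only just above the higher healthy library, at 217 against 189 CPM in basal cells and 105 against 100.7 CPM in intermediate cells.

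In chronic bladders Il33 was above both healthy libraries in 5 of the 6 classes in which it was tested, all but cycling urothelial cells. Over all genes 18.3% of the gene-by-class tests showed this pattern. That share is for single tests, while the classes of Il33 come from the same libraries and are not separate observations. Superficial cells differed by 1.65 (SE 0.41, adjusted p = 0.857), from 5.46 and 11.8 CPM in healthy to 28.4 and 25.7 CPM in chronic bladders. Myofibroblasts differed by 2.60 (SE 0.59, edgeR adjusted p = 0.370, DESeq2 adjusted p = 0.0982), and with no filter on low counts edgeR called this difference (2.45, adjusted p = 0.00399). The chronic myofibroblast values rest on 7 and 24 UMIs. In chronic replicate 1 Il33 stood in myofibroblasts at 27.0% of its level in intermediate cells and the uroplakins at 31.5%, and in chronic replicate 2 at 50.6% and 23.5%. In the healthy libraries the same pairs were 14.1% and 6.39%, and 11.0% and 22.4%. In fibroblasts the uroplakins stood at 26.9% and 49.4% of their intermediate level in the chronic libraries, also above the 6.94% and 22.6% of the healthy ones. The part of urothelial RNA in the fibroblast and myofibroblast differences was not tested. Nor was the part of RNA from basal and intermediate cells, where Il33 is higher, in the superficial difference.

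**Figure D5:**
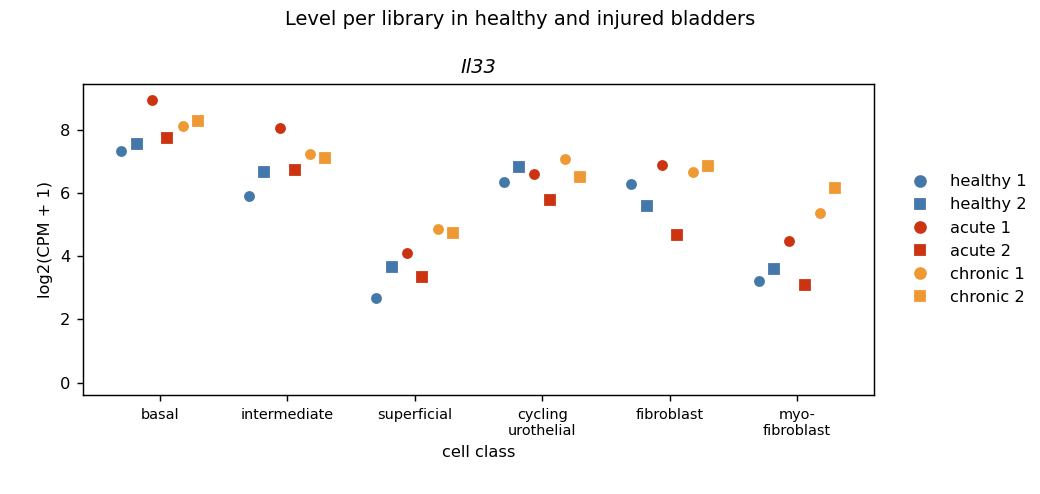
Level of Il33 as log2(CPM + 1) in the 6 classes in which it was tested between conditions, with 1 point per library (blue healthy, red acute, orange chronic). Chronic libraries lie above both healthy libraries except in cycling urothelial cells, and acute replicate 1 lies above acute replicate 2 in each class.

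The remaining named differences were not called either. For Il18 both chronic libraries lay above both healthy ones in intermediate cells (1.07, SE 0.69, adjusted p = 0.958) and in cycling urothelial cells (1.15, SE 0.71, adjusted p = 0.536), where the healthy levels were 4.20 and 24.7 CPM and 2.81 and 26.2 CPM. The lower of each pair is healthy replicate 1, and without it the differences were 0.29 and 0.28. In basal cells, where the mean of Il18 over the 6 libraries was 7.01 CPM and so under the 10 CPM of the rule, the means were 3.002 CPM in healthy, 8.02 CPM in acute and 10.02 CPM in chronic bladders, and neither contrast was called (edgeR adjusted p = 0.9998 and 0.9999). Il1rn in chronic myofibroblasts was 23.2 and 17.6 CPM (4 and 6 UMIs) against 0.989 and 12.4 CPM in healthy ones (2.11, SE 1.23, adjusted p = 0.723), and without healthy replicate 1 the difference was 0.62. The uroplakins also stood higher in chronic myofibroblasts, as given above for Il33, while Il1rn stood there at 76.2% and 44.3% of its intermediate level, against 5.02% and 27.2% in healthy ones. The part of urothelial RNA in this difference was not tested. Tslp in chronic macrophages measured 43.0 and 32.9 CPM against 65.4 and 232 CPM (-2.02, SE 0.79, adjusted p = 0.936), with 7 and 5 UMIs in the chronic libraries, and was called with no filter on low counts (-2.13, adjusted p = 0.0419). Without healthy replicate 2 this difference was -0.98. In the Folr2-led macrophages alone, both chronic libraries (72.2 and 74.0 CPM) were also below both healthy ones (179.8 and 255 CPM). The inflammatory cytokines Il1b, Il1a and Tnf overlapped between healthy and injured macrophages in both contrasts.

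The wider pathway was read from 5 further lists of 56 genes in all: other ligands and alarmins, other receptors and decoys, inflammasome and release genes, signal transduction genes, and targets of NF-kB. With the 16 immediate-early genes they gave 353 tests per contrast. In acute against healthy bladders 0 of these were called by edgeR, 23 had an unadjusted p under 0.05 and DESeq2 called 2, where the shares over all gene-by-class tests were 0.0322%, 4.46% and 0.375%. For chronic against healthy bladders the numbers were 0, 27 and 2, and the shares 0.0161%, 6.76% and 0.585%. Between cell classes the 5 lists were called in 21 of 42 tests for intermediate against basal cells (4 higher, 17 lower) and in 24 of 39 for superficial against intermediate cells (5 higher, 19 lower), or 50% and 61.5% of tests, against 41.0% and 53.1% over all genes.

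Most of these calls were lower towards the lumen, while over all genes 20.2% were called higher and 20.8% lower in intermediate against basal cells, and 26.0% and 27.1% in superficial against intermediate cells. The median log2 fold change of a list, called or not, was small in the first comparison (-0.19 to -0.04 over the 5 lists) and ranged from -0.57 for the inflammasome and release genes to 0.0067 for the other receptors and decoys in the second. Of the 16 immediate-early genes, 13 were lower and 0 higher in intermediate against basal cells and 12 were lower and 0 higher in superficial against intermediate cells. Their part in the calls of the pathway lists was not tested. Some of the largest calls are named. Il6ra, the interleukin-6 receptor, fell from a mean of 47.2 CPM in basal to 16.3 CPM in intermediate and 3.84 CPM in superficial cells (-1.43 and -2.12, adjusted p = 5.13e-16 and 2.87e-10). Ptgs2, the inducible prostaglandin synthase, fell from 34.7 to 10.9 and 3.17 CPM (-1.55 and -1.61, adjusted p = 1.90e-14 and 7.49e-09). Gsdmd, the pore-forming gasdermin through which interleukin-1 beta leaves cells, was lower in superficial cells (4.53 CPM) than in intermediate cells (19.1 CPM, -2.20, adjusted p = 7.64e-11). Il1r2, the decoy receptor that binds interleukin-1 without signalling, was lowest in the middle layer, with 6.49, 1.60 and 6.08 CPM in basal, intermediate and superficial cells. Nlrc4, an inflammasome sensor, was higher in intermediate (1.69 CPM) than in basal cells (0.229 CPM, 2.51, adjusted p = 6.85e-04). Hmgb1, a chromatin protein that acts as an alarmin outside the cell, was higher in cycling urothelial cells than in non-cycling basal and intermediate cells (791 against 415 CPM, 0.81, adjusted p = 1.22e-04).

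Among the largest calls of the lists in leukocytes and stroma were the following. The cells with MHC class II but no C1q held far more of the decoy Il1r2 than macrophages (218 against 13.0 CPM, -3.82, adjusted p = 4.12e-08), and macrophages held more Il18bp, which binds interleukin-18 (69.2 against 11.6 CPM, 2.87, adjusted p = 3.61e-04), and more of the chemokines Cxcl1 and Cxcl2 (3.15 and 3.25, adjusted p = 1.87e-04 and 0.0103). Il18r1, a chain of the interleukin-18 receptor, averaged 104 CPM in lymphocytes and was listed with 0 UMIs in the macrophages of the same 2 libraries. Lymphocytes held less than macrophages of the chemokines Ccl2 (1.67 against 2144 CPM, -9.76, adjusted p = 2.37e-61), Cxcl1 (mean of 527 CPM in macrophages, -5.28, adjusted p = 7.87e-28) and Cxcl2 (206 against 4427 CPM, -4.95, adjusted p = 3.57e-38). In fibroblasts against basal cells the chemokines Ccl2 (216 against 5.47 CPM) and Cxcl1 (379 against 11.8 CPM) were among the most different, together with Tnfrsf1b and Casp1. Myofibroblasts held less Casp1 than fibroblasts (-2.20, adjusted p = 0.00122) and Cxcl1 (-1.50, adjusted p = 0.0021), and more Irak2 (1.78, adjusted p = 2.43e-07) and Il1r2 (1.70, adjusted p = 0.0218). Of the list genes tested, edgeR called 7 of 29 between the antigen-presenting classes (24.1%, against 26.2% of all genes), 23 of 40 between fibroblasts and basal cells (57.5%, against 63.6%) and 11 of 42 for cycling cells (26.2%, against 32.3%), shares below those over all genes. Between lymphocytes and macrophages 13 of 26 were called (50%, against 20.8%), and between the mesenchymal classes 13 of 38 (34.2%, against 20.6%). Of 15 immediate-early genes tested, 0 were higher and 10 lower in lymphocytes than in macrophages. In macrophages against cells with MHC class II but no C1q, 8 of 15 were higher and 1 lower. In fibroblasts against basal cells 7 of 16 were higher and 2 lower, and in myofibroblasts against fibroblasts 4 and 2. Their part in these calls was not tested.

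Across the 55 sums of a class in a library, the genes most like each member in log2(CPM + 1) were sought among about 3400 genes with a mean of at least 50 CPM. The sums share libraries and may share free RNA, so the correlations are descriptions. Tnf was most like Aif1 (Pearson r = 0.97), Wfdc17 and Spi1, and Il1b most like Spi1 (0.93), Ms4a6c and H2-Ab1. Tslp was most like Igf1 (0.91), Timp2 and Cd302, and Il1a like Aif1 (0.87), Pld4 and Fcgr2b. Il33 was most like Ugdh (0.86), Lancl1 and Esd. Il6 was most like Socs3 (0.82), Gadd45g and Tnfrsf1a, and Il1rn like Cndp2 (0.76), Tmem141 and Tpd52.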

How the data were processed

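Per the labels and the methods of the study, the authors aligned droplet libraries to mm10 with Cell Ranger and deposited unnormalized UMI counts of each gene in each cell of 6 libraries. Genes found in under about 0.1% of the cells are missing from 2 tables (the first healthy and the first acute library), and 1 row of healthy replicate 1 was cut short. From these counts, a barcode was retained if it had more than 500 genes and less than 10% of UMIs from mitochondria, doublets were called with Scrublet at 0.8% per 1000 cells (scanpy 1.11.5), and libraries were normalized with sctransform 0.4.2 and integrated in Seurat 5.3.0 over 50 components. Members and 56 pathway genes were kept out of the features. The 16 immediate-early genes were not, and S100a8 and S100a9 of the pathway lists were also listed as neutrophil markers. Leiden clusters (leidenalg 0.10.2, igraph 0.11.9, resolution 0.8) were named from marker lists, and urothelial, mesenchymal and immune clusters were clustered again. A urothelial cell with a high score for cell cycle genes was called cycling, whatever its layer. Of the other urothelial cells, superficial cells were whole sub-clusters, and the rest were basal or intermediate by the larger marker score. A total of 2065 cells fell in no class, which includes 9.48% of the cells of acute replicate 2.

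For each class, the UMIs of a library's cells were added up where there were 20 or more. Sums were tested in edgeR 4.0.16 (TMM, filterByExpr, quasi-likelihood test, Benjamini-Hochberg adjustment over all genes tested at 0.05), with condition as the term between conditions and the library as a block between classes, and with DESeq2 1.42.0 in R 4.3.3 as an alternative. Classes of a pair come from the same libraries. The study itself compared cells with a Wilcoxon test, which was not repeated, since cells are not replicates. Other alternatives were DESeq2 size factors in edgeR, no filter on low counts, doublets kept, clustering without integration, stricter cells, a replicate block, and leaving out each library. The fits were tested on simulated counts for acute against healthy bladders. Changes of 1 on the log2 scale were called for 16.3% of changed genes in intermediate cells, 1.02% in fibroblasts and 0% in macrophages. Changes of 2 were called for 72%, 45.4% and 25.3%. False calls among unchanged genes numbered 12, 14 and 3. Most changes of 1 were thus missed. Promoters and transcript starts are from RefSeq GRCm38.p6, and gene positions from a GENCODE annotation of GRCm38. All members were described whether or not they were called. A fold change between conditions is printed for members called, or with both injured libraries outside the healthy range, a log2 fold change of at least 1 and a mean of at least 10 CPM over the libraries of the class, and from the other lists at most the 4 largest calls per comparison. Members and lists were chosen with earlier results of these data known. Depth limits a level to 3 UMIs of a class total, and intervals for counting error were not added to the spread between libraries. No sequence or position is given for Tslp.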

Additional observations from a re-analysis of the deposited data

Results flagged for a closer look

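Il1r1 in superficial cells lay on opposite sides of the healthy libraries after acute and chronic CPP: both acute libraries (23.6 and 17.4 CPM) lay above both healthy ones (14.7 and 15.5 CPM), with a log2 fold change of 0.43, and both chronic libraries (13.9 and 13.7 CPM) lay below. In acute against healthy bladders the same gene also differed in direction between classes, with 0.43 in superficial cells, -0.11 in basal cells and -0.27 in fibroblasts, each with both acute libraries outside the healthy range. Over all gene-by-class tests both acute libraries lay above both healthy ones in 15.3% and below in 15.7%, and both chronic libraries in 18.3% and 17.5%. None of these differences was itself tested, and 0 of the single contrasts was called (edgeR adjusted p = 0.9994 to 0.9999). DESeq2 called 0 of them, and 0 had an unadjusted p under 0.05.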

How the results depend on the processing

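Between conditions, 0 members were called in either contrast with DESeq2 size factors, with the DESeq2 test, with doublets kept, without integration and with stricter cells. In acute against healthy bladders, leaving out single libraries gave 0 to 1 calls, and the 1 call without acute replicate 1 was Il6 in myofibroblasts (-3.66, adjusted p = 0.0247), where only acute replicate 2, with its different sub-cluster makeup, then stands for acute injury and is assumed to vary like the other groups. In chronic against healthy bladders, 2 members were called with no filter on low counts: Il33 in myofibroblasts (2.45, adjusted p = 0.00399) and Tslp in macrophages (-2.13, adjusted p = 0.0419). Between cell classes 24 calls were made, 23 to 27 under the other settings, 18 to 25 without single libraries, and 14 without the library as a replicate block, and no call reversed. Not every call could be refitted: without acute replicate 2, 18 calls were kept and 2 lost, and without the block 14 were kept and 7 lost. The remaining calls had too few libraries or fell under the filter on low counts. Lymphocytes could not be compared with macrophages without healthy replicate 2, without acute replicate 2 or with stricter cells. Recomputed for each call and setting, 278 values kept their side of the threshold and 19 lost it. Without the block, Il33 between intermediate and basal cells (-0.93, adjusted p = 0.0867) and Il6 between superficial and intermediate cells (-1.49, adjusted p = 0.0561) were among those lost. The labels do not say that a replicate number marks a shared batch. Deviations of same-numbered libraries correlated at -0.090 to 0.39 over the 7 classes between healthy and acute, and at -0.34 to 0.11 between healthy and chronic, so the numbers were not taken as pairs. Healthy replicate 1 and acute replicate 1 do resemble each other, and a replicate block between conditions left 0 calls in both contrasts. Of the mean levels per class recomputed, 286 moved by less than the spread between libraries and 11 by more. With 2 libraries per condition, a missing call does not show that a level stayed the same.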
